A study of Mus musculus with 43 samples.

Results

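The genes described here encode the activin and inhibin system, read in 43 single NAcLat→VTA cells. These are neurons of the lateral nucleus accumbens that project to the ventral tegmental area. The 10 genes were listed by name and selected on measured values of these cells, the ratio of mean expression between diets and its dependence on single cells. Both are therefore given as a description and without a test. They are 10 of the 35825 genes in the deposited tables. Of the 10 genes, 9 had a count in at least 1 cell, and 8 passed the expression filter, which asks for more than 15 counts per 1000000 counts of the cell (CPM) in at least 5 cells and a mean above 4 CPM.

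Activins and inhibins are secreted dimers of the transforming growth factor-β family. *Inhba* and *Inhbb* encode the β subunits, which pair with each other to form activins, and *Inha* encodes the α subunit, which pairs with a β subunit to form inhibins. Activin binds a type II receptor (*Acvr2a*, *Acvr2b*), which recruits a type I receptor (*Acvr1b*), and the complex phosphorylates SMAD2 and SMAD3, which then enter the nucleus with SMAD4. Inhibin occupies type II receptors without starting this chain, and follistatin, the product of *Fst*, binds activin outside the cell. In neurons, *Inhba* is known as a gene induced by synaptic activity.

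The regular diet group (REG, labelled NORM) held 23 cells from mice with free access to standard chow. The high-fat diet group (HFD) held 20 cells from mice with free access to standard chow and, for 4 weeks or longer, to chow holding 60% fat. Methods list male and female mice of 6 to 8 weeks, C57BL/6 J among several lines, and the line, sex and mouse behind each cell are not named. Fluorescent retrobeads placed in the ventral tegmental area marked the cells of both groups, and the cytosol was drawn into the patch pipette for sequencing, with 1 library per cell. The cells came from 10 REG mice and 11 HFD mice, so cells of a diet are not independent, and a diet counts as 1 sample here. Cells were used for no test, standard error or p-value, and no interval given here covers the spread between mice. Intervals of summed counts treat reads as independent molecules, which amplified reads are not, so they are too narrow even for counting error. Intervals of shares of cells treat the cells as independent draws, which cells of the same mouse are not. By their labels, 13 REG and 5 HFD cells belonged to batch 1, and 10 REG and 15 HFD cells to batch 2, and the labels do not say what a batch was.

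Total estimated counts ran from 176961 to 16919555 in REG cells and from 178341 to 8242048 in HFD cells, with medians of 1427698 and 1416982. Shallow libraries can miss a gene of low level, so detection is also given after each cell was thinned to 150000 counts. Each cell enters a mean with equal weight, and the difference between diets is the log2 ratio of mean CPM, HFD over REG.

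The cells carried the markers of striatal projection neurons. Over all pairs of gene and cell, the 7 markers of medium spiny neurons were detected in 99.7%, the 3 GABAergic markers in 94.6% and the 4 markers of D1 medium spiny neurons in 95.9%, against 36.6% for the 4 markers of D2 medium spiny neurons. Of the 3 cholinergic markers, *Slc18a3* had no count in any cell, while *Slc5a7* had counts in 12 cells and *Chat* in 5. The 6 microglial markers summed to a median of 25.9 CPM in REG cells, between 0 and 1223, and of 51.6 CPM in HFD cells, between 0.777 and 1158. Their part in the values below was not tested.

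A single cell stood apart and matters for *Inhba*. In HFD cell 13, of batch 2, the D1 list summed to 97.4 CPM, the lowest of the 43 cells, where the median cell had 1927 CPM. *Drd1* made up most of this sum, at 86.0 CPM against a median of 197 CPM. *Tac1* had 8.53, *Pdyn* 2.84 and *Isl1* 0 CPM, against medians of 955, 680 and 22.1 CPM. The list of medium spiny neurons summed to 818 CPM there, rank 41 of 43, against a median of 3503 CPM. Of that list, *Pde10a* had 0.711 CPM, *Rgs9* 1.42 CPM and *Foxp1* 1.42 CPM in the cell, while *Ppp1r1b* had 760 CPM. Markers of other striatal interneurons summed to 429 CPM, the second highest of the 43 cells, with 206 CPM of *Npy* and 208 CPM of *Kit*, where the median cell had 0 CPM of each. The rest of that list was low there, with *Sst* at 7.82, *Pvalb* at 5.69 and *Nos1* at 1.45 CPM, against medians of 0, 1.11 and 0.939 CPM. The D2 list summed to 149.2 CPM, rank 6, against a median of 13.2 CPM, with *Penk* at 148.5 CPM. The rest of the D2 list was near or at 0 there, with *Drd2* at 0.711 CPM and *Adora2a* and *Gpr6* at 0 CPM. GABAergic markers summed to 1217 CPM, rank 4. *Nts* was at 1.42 CPM in the cell and had a median of 205 CPM in the other cells. The cell was not extreme in depth, with 1407169 counts (rank 23) and 9727 detected genes (rank 24). Leaving it out moved the log2 ratio between diets by −2.58 for *Inhba* and by −0.0063 to 0.074 for the 8 other detected genes, so only *Inhba* is given with and without it below.

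**Figure D1:**
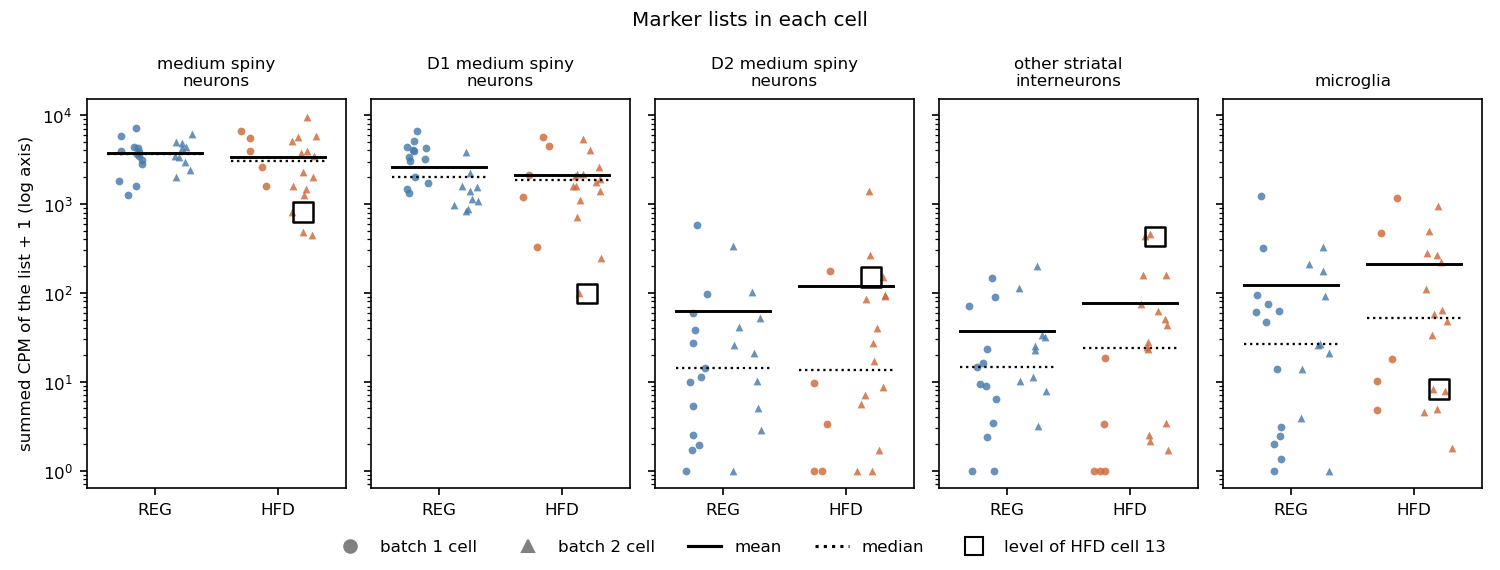
Summed CPM of 5 marker lists, plus 1 on a log axis, with a point for each cell, circles for batch 1 and triangles for batch 2, solid lines for the mean and dotted lines for the median of a diet. The open square marks the level of HFD cell 13, which was lowest of the 43 cells for the D1 list (97.4 CPM) and second highest for the interneuron list (429 CPM).

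Compared per transcript length, as TPM, which the authors scaled to a fixed sum within each cell, the type II receptor *Acvr2a* and the inhibin subunit *Inha* had the highest medians over the 43 cells, at 12.5 and 11.3 TPM. Then came *Smad3* (4.29 TPM), *Acvr1b* (2.62 TPM), *Acvr1* (1.99 TPM), *Acvr2b* (1.66 TPM) and *Smad2* (1.27 TPM). The lowest medians with any signal belonged to *Inhba* (0.909 TPM) and *Fst* (0.542 TPM). Every gene but *Inhbb* had cells at 0 TPM and a highest cell of 59.4 TPM or more, so the ranges of all neighbours in this order overlapped. Means gave another order, led by *Inha* (46.0 TPM), *Inhba* (35.3 TPM) and *Acvr2b* (34.5 TPM). *Inhba* thus stood at rank 8 of 10 by its median and at rank 2 by its mean. The highest single value of any of the genes was 864 TPM of *Inhba* in HFD cell 13. By medians within a diet, *Inha* ranked 1 and *Acvr2a* 2 in REG cells, and the reverse held in HFD cells.

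**Figure D2:**
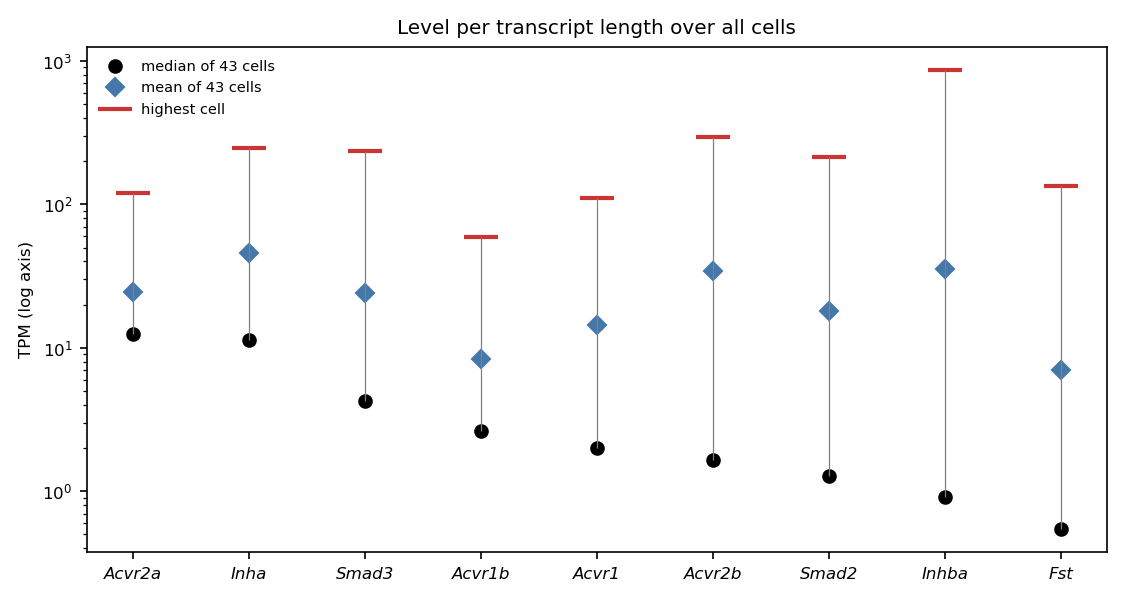
Level of the 9 detected genes in TPM on a log axis, with the median, the mean and the highest of 43 cells, ordered by the median. *Inhba* has a median of 0.909 TPM, a mean of 35.3 TPM and a highest cell at 864 TPM, farther from its median than for any other of the 9 genes.

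*Inhba*, on the plus strand of chromosome 13 from 16011851 to 16031621 (GRCm38), encodes the βA subunit of activin A. It overlaps the genes *B230303A05Rik* and *Gm48444* on the other strand, and its transcripts share 0.713% of their words of 31 bases with other genes. These 45 words occur in 2785 other genes, so low estimated counts may include reads that cannot be assigned with certainty. It had counts in 19 of 23 REG cells, or 82.6% (exact 95% binomial interval, 61.2% to 95.05%), while 15 of 20 HFD cells had them, or 75% (50.9% to 91.3%). In REG cells the lowest value was 0, the median 2.29 and the highest 110.7 CPM. In HFD cells these were 0, 3.02 and 1633 CPM. HFD cell 13 lay far above every REG cell, and the other 19 HFD cells, of which the highest had 106 CPM, lay within the REG range. More than 15 CPM was found in 5 REG cells and 7 HFD cells, and thinned cells showed a count in 9 REG cells and 10 HFD cells.

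Mean *Inhba* was 16.5 CPM in REG (SD 29.6, n = 23 cells) and 97.1 CPM in HFD cells (SD 363, n = 20 cells), which gives a log2 ratio of 2.55. HFD cell 13 alone held 2298 of the 2853 HFD counts and 84.1% of the summed CPM of its diet. Without it the HFD mean was 16.2 CPM and the log2 ratio −0.029. With any 1 cell left out the ratio ran from that value to 2.98, the latter without REG cell 7. The ratio of medians over cells was 0.40 on the log2 scale, and the difference in mean log2(CPM + 1) was 0.26. Within batch 1, which does not hold the cell, the ratio was 0.20, from means of 23.9 and 27.5 CPM. Within batch 2 the ratio reached 4.10, with means of 7.01 CPM over 10 REG cells against 120 CPM over 15 HFD cells. Without HFD cell 13, the 14 remaining HFD cells of batch 2 had a mean of 12.2 CPM and the ratio within that batch was 0.80. Without that cell, both batches thus gave a ratio above 0 while all cells together did not. The highest of those 14 cells was HFD cell 17, at 106 CPM, and the ratio within batch 2 was not computed without it. The medians over all cells of batch 2 had the other order, with 1.53 CPM in REG and 0.997 CPM in HFD cells.

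The other β subunit gene, *Inhbb*, on chromosome 1 from 119415465 to 119422248, had 0 counts in all 43 cells, for which the exact interval of the share of cells with a count reaches 8.22%. No level or ratio is given for it.

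*Inha*, on chromosome 1 from 75507077 to 75510366 on the plus strand, encodes the inhibin α subunit. REG cells had a lowest value of 0, a median of 35.7 and a highest value of 215 CPM. HFD cells had 0, 4.52 and 110 CPM. The 7 highest cells of the series were REG cells, and the ranges overlapped from 110 CPM down. Detection was 73.9% in REG cells (17 of 23, 51.6% to 89.8%) and 60% in HFD cells (12 of 20, 36.1% to 80.9%). More than 15 CPM was found in 13 REG cells and 7 HFD cells.

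Mean *Inha* was 58.5 CPM in REG (SD 67.8) and 16.4 CPM in HFD cells (SD 26.5), which gives a log2 ratio of −1.83. The REG cells together had 3477 counts (exact 95% Poisson interval, 3362 to 3595) and the HFD cells 670 counts (620 to 723). Of these counts, REG cell 14 held 2058 and HFD cell 20 held 336, each the deepest library of its diet, so the summed counts lean on them. By CPM, where cells weigh equally, no cell dominated, the highest REG cell holding 15.95% and the highest HFD cell 33.6% of its diet. The ratio ran from −2.35 to −1.65 over the cells left out in turn, was −1.15 within batch 1 and −1.79 within batch 2, and was −2.98 on medians. It was below 0 under all 13 other settings computed, between −2.98 and −1.15. Mean *Inha* in REG cells was 75.3 CPM for batch 1 against 36.7 CPM for batch 2. HFD means were 33.9 CPM in batch 1 and 10.6 CPM in batch 2.

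*Inhba* and *Inha* were read together in 23 of 43 cells, or 53.5% (37.7% to 68.8%), 13 of them REG and 10 HFD. *Inhba* without *Inha* occurred in 11 cells and *Inha* without *Inhba* in 6 cells. The 3 cells with neither were all HFD cells, which did not hold at equal depth or a higher limit. After thinning, 5 REG and 6 HFD cells had neither, and 10 cells had both. Above 15 CPM, 7 REG and 10 HFD cells had neither, and 6 cells had both. Per transcript length, *Inha* exceeded *Inhba* in 14 REG cells and fell short of it in 9. In HFD cells this count was 8 against 9.

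*Fst*, which lies on chromosome 13 from 114452290 to 114458951 on the minus strand, is the gene of follistatin. It did not pass the expression filter. Counts were present in 16 of 23 REG and 11 of 20 HFD cells, and only 3 REG cells and 1 HFD cell exceeded 15 CPM. REG cells had a lowest value of 0, a median of 1.04 and a highest value of 121 CPM, and HFD cells had 0, 0.591 and 169 CPM. Each diet had a single cell far above the others, REG cell 20 with 63.6% of the summed CPM and HFD cell 16 with 85.7%. The second cell of each diet stood at 29.8 and 10.7 CPM. The log2 ratio of means was 0.25, from 8.25 and 9.84 CPM, and it became −2.48 without HFD cell 16 and 1.65 without REG cell 20. It was 0.44 in batch 1, −0.47 in batch 2, −0.81 on medians and 1.06 on summed counts over summed totals. The reference transcripts of *Fst* share 2.25% of their words of 31 bases with other genes, most of them with the antisense gene *Gm47040*.

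All 27 cells with *Fst* counts also had *Inhba* counts, which is 16 of 16 REG cells and 11 of 11 HFD cells. The 9 cells without *Inhba* were shallower, with a median of 444294 counts and 8370 genes, against 1755253 counts and 11193 genes in the other 34 cells. After thinning, 5 of the 8 cells with *Fst* had *Inhba*. Above 15 CPM, no cell had both genes. The part of depth in the shared detection was not tested otherwise, and that of words shared with other genes was not tested.

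**Figure D3:**
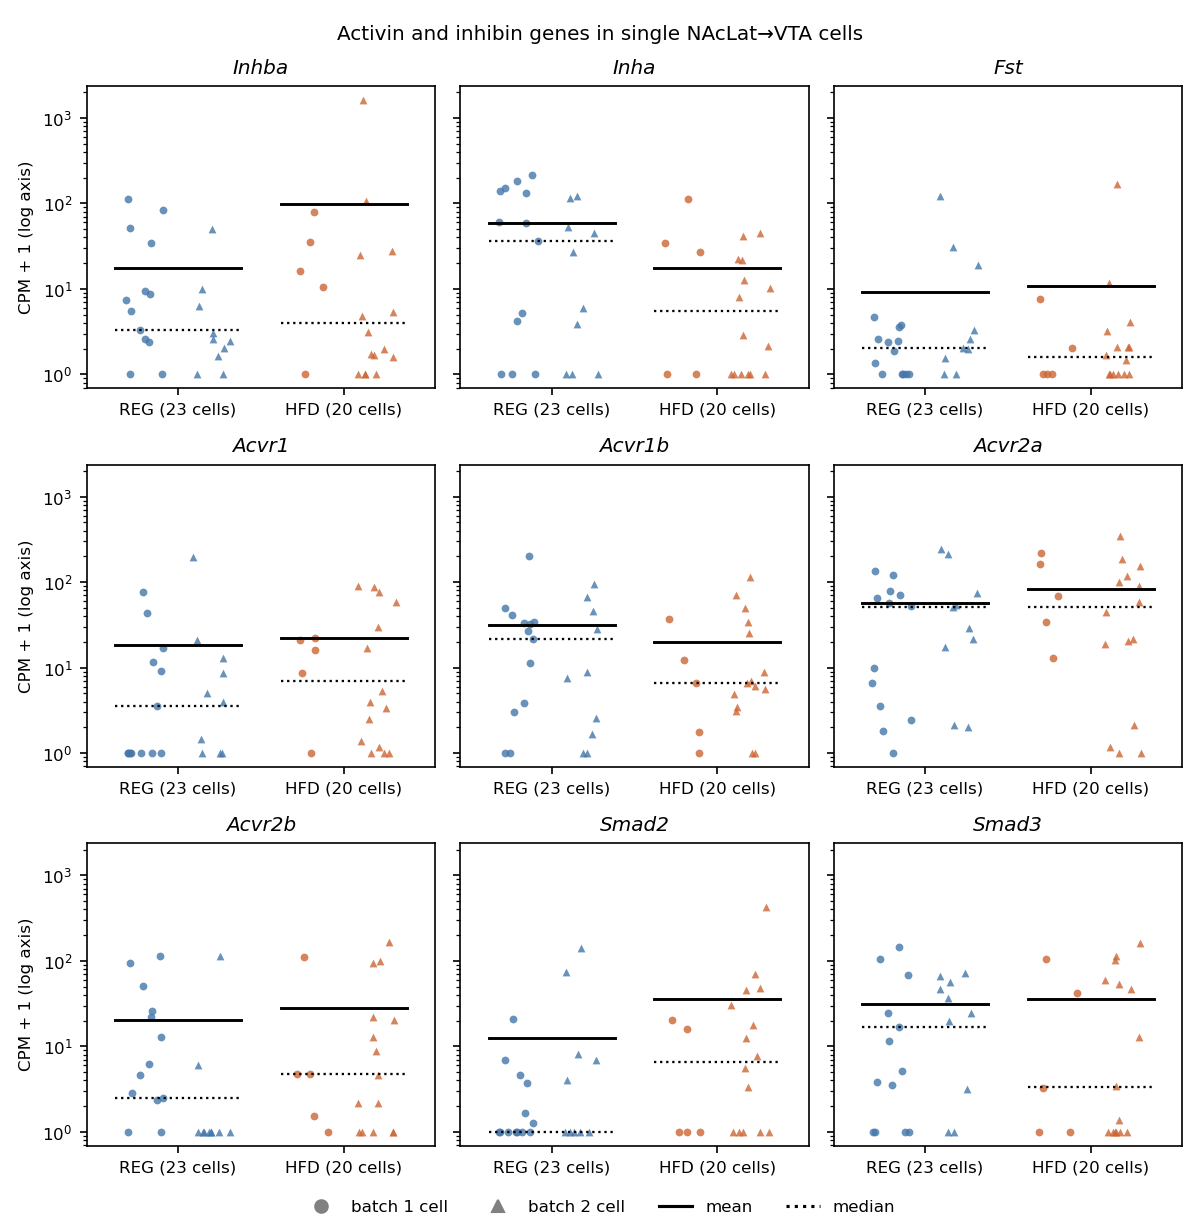
CPM + 1 of the 9 detected genes on a log axis, with a point for each of 23 REG and 20 HFD cells, circles for batch 1 and triangles for batch 2, solid lines for the mean and dotted lines for the median. The single HFD cell at 1633 CPM lifts the *Inhba* mean to 97.1 CPM over a median of 3.02 CPM, while for *Inha* both lines lie lower in HFD cells.

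Of the type II receptors, *Acvr2a* was the most widely detected of the 10 genes, with counts in 22 of 23 REG and 18 of 20 HFD cells. Its values ran from 0 over a median of 50.8 to 242 CPM in REG cells, and from 0 over 50.3 to 350 CPM in HFD cells. The medians of both diets thus nearly coincided, and the ranges overlapped throughout. Mean *Acvr2a* was 56.0 CPM (SD 66.0) and 82.5 CPM (SD 92.4), a log2 ratio of 0.56, from 0.29 to 0.79 over the cells left out in turn. Within batch 1 the ratio was 1.11 and within batch 2 it was 0.15. The sign turned on medians (−0.015) and on summed counts over summed totals (−0.22). *Acvr2a* lies on chromosome 2 from 48814109 to 48903269 and overlaps *Orc4* on the other strand, with which it shares 416 of 5685 words of 31 bases, so a part of its reads cannot be assigned with certainty.

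*Acvr2b*, the other activin type II receptor (chromosome 9 from 119402118 to 119434995), was sparser, with counts in 13 REG cells and 14 HFD cells. Its medians were 1.49 and 3.69 CPM and its highest values 114 and 164 CPM, with cells at 0 in both diets. The log2 ratio of means, from 19.3 and 27.1 CPM, was 0.49, with a range of 0.038 to 0.85 over the cells left out in turn. It was −0.085 in batch 1, 1.27 in batch 2 and −0.10 on summed counts over summed totals. In batch 2, counts were found in only 2 of 10 REG cells and in 10 of 15 HFD cells, while batch 1 had 11 of 13 and 4 of 5. At least 1 type II receptor was read in 42 of 43 cells.

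*Acvr1b*, on chromosome 15 from 101174067 to 101213684, encodes ALK4, the main type I receptor of activin. Counts occurred in 19 of 23 REG and 17 of 20 HFD cells, with medians of 20.6 and 5.58 CPM and highest values of 202 and 115 CPM. Mean *Acvr1b* was 30.4 CPM in REG and 19.1 CPM in HFD cells, so the log2 ratio was −0.67, from −1.10 to −0.24 over the cells left out in turn. The ratio was −1.68 within batch 1, −0.18 within batch 2 and −1.88 on medians. Weighted by depth, as summed counts over summed totals, it was 0.15.

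*Acvr1*, on chromosome 2 from 58388644 to 58567157, encodes ALK2, a type I receptor that mainly serves bone morphogenetic proteins. It was read in 13 REG and 16 HFD cells, with medians of 2.56 and 5.96 CPM and highest values of 196 and 88.9 CPM. REG cell 14, the deepest library, held 49.3% of the REG total. The log2 ratio of means, from 17.3 and 21.4 CPM, was 0.31, and 1.22 without that cell. It was 0.11 in batch 1 and −0.0029 in batch 2. On summed counts over summed totals, where REG cell 14 weighs most, the direction turned to −1.04.

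*Smad2* and *Smad3* encode the SMAD proteins that activin receptors phosphorylate. *Smad2* was read in 11 REG cells and 12 HFD cells, from 0 over a median of 0 to 140 CPM in REG and from 0 over 5.57 to 430 CPM in HFD cells. Mean *Smad2* was 11.4 CPM (SD 31.9) and 34.8 CPM (SD 95.1), a log2 ratio of 1.62. REG cell 14 held 53.4% of the REG total and HFD cell 19 held 61.8% of the HFD total. Without HFD cell 19 the ratio was 0.30, and without REG cell 14 it was 2.65. Within batch 1 it was 1.44, from means of 2.52 and 6.85 CPM with counts in 6 of 13 REG and 2 of 5 HFD cells. Within batch 2, which holds both REG cell 14 and HFD cell 19, it was 0.95, from means of 22.9 and 44.1 CPM. The ratio within batch 2 was not computed without either cell, so its sign without HFD cell 19 is not given. That cell had 430 CPM, and the next highest HFD cell, HFD cell 12 of the same batch, had 70.1 CPM. Medians within batch 2 were 1.51 CPM in REG and 6.65 CPM in HFD cells. On summed counts over summed totals it was 0.64. More than 15 CPM occurred in 3 REG cells and 7 HFD cells, and thinned cells had a count in 5 REG cells and 10 HFD cells.

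*Smad3*, on chromosome 9 from 63646767 to 63757994, was read in 17 REG cells and 12 HFD cells, with medians of 15.8 and 2.35 CPM and highest values of 143 and 162 CPM. The means were 30.2 CPM (SD 38.7) and 34.8 CPM (SD 49.2), a log2 ratio of 0.21, from −0.10 to 0.48 over the cells left out in turn and 0.039 and 0.20 within the batches. The opposite sign was found for the ratio of medians (−2.75), the difference in mean log2(CPM + 1) (−0.49) and summed counts over summed totals (−0.13). More than 15 CPM was found in 12 REG cells and 8 HFD cells, so the means and the medians of *Smad3* order the diets differently.

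Counts of *Acvr1b*, of a type II receptor and of *Smad2* or *Smad3* were present together in 31 of 43 cells, or 72.1% (56.3% to 84.7%). By diet these were 18 of 23 REG cells, or 78.3% (56.3% to 92.5%), and 13 of 20 HFD cells, or 65% (40.8% to 84.6%). These shares were not tested against each other. With a limit of 15 CPM for each gene, 9 cells remained, 5 REG and 4 HFD, and with thinned cells 13 remained, 7 REG and 6 HFD. Of the 31 cells, 26 also had *Inhba* counts. HFD cell 13, with the highest *Inhba*, had counts of 4 of the 10 genes, which were *Inhba*, *Inha* (7.11 CPM), *Fst* (10.7 CPM) and *Acvr1b* (5.15 CPM), and was not among the 31. Cells held counts of 2 to 9 of the 10 genes, with a median of 7 in REG cells and 6 in HFD cells, and of 4 in both diets after thinning.

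Read together, 2 of the 8 filtered genes had a mean over 2-fold higher in HFD cells, *Inhba* and *Smad2*, where 9.04% of all 10802 filtered genes did. *Inha* was over 2-fold lower, where 14.3% of filtered genes were. The genes were listed with these ratios known, so nothing is read from the counts. The median log2 ratio was 0.40 over the 8 genes and −0.13 over all filtered genes, whose 5th and 95th percentiles were −1.65 and 1.35. Without HFD cell 13 the count past 2-fold was 2, *Inha* and *Smad2*, and without HFD cell 19 it was 2, *Inha* and *Inhba*.

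**Figure D4:**
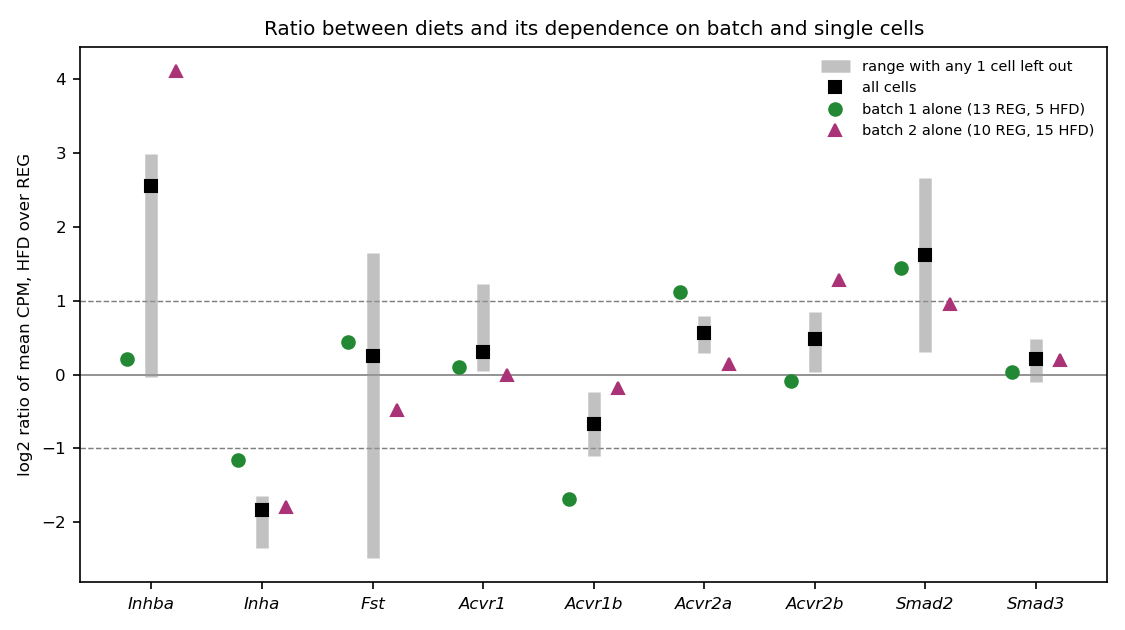
Log2 ratio of mean CPM, HFD over REG, for the 9 detected genes, with squares for all cells, circles for batch 1 and triangles for batch 2, with grey bars for the range when any 1 cell is left out and dashed lines at 2-fold. *Inha* lies below −1 throughout, while the bars of *Inhba*, *Fst* and *Smad3* cross 0.

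Single cells weighed on the genes to different degrees. A cell held more than 50% of the summed CPM of a diet for *Inhba* (HFD), *Fst* (both diets) and *Smad2* (both diets). Among all filtered genes this occurred for 7.17% in REG cells and 13.6% in HFD cells, and the median share of the highest cell was 23.6% and 29.1%. The value nearest above the limit was *Smad2* in REG cells, at 53.4%, and the value nearest below was *Acvr1* in REG cells, at 49.3%. The remaining shares ran from 15.95% for *Inha* to 33.6% for the same gene in HFD cells. The cells involved were different, namely HFD cell 13 for *Inhba*, REG cell 20 and HFD cell 16 for *Fst*, and REG cell 14 and HFD cell 19 for *Smad2*, all of batch 2.

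**Figure D5:**
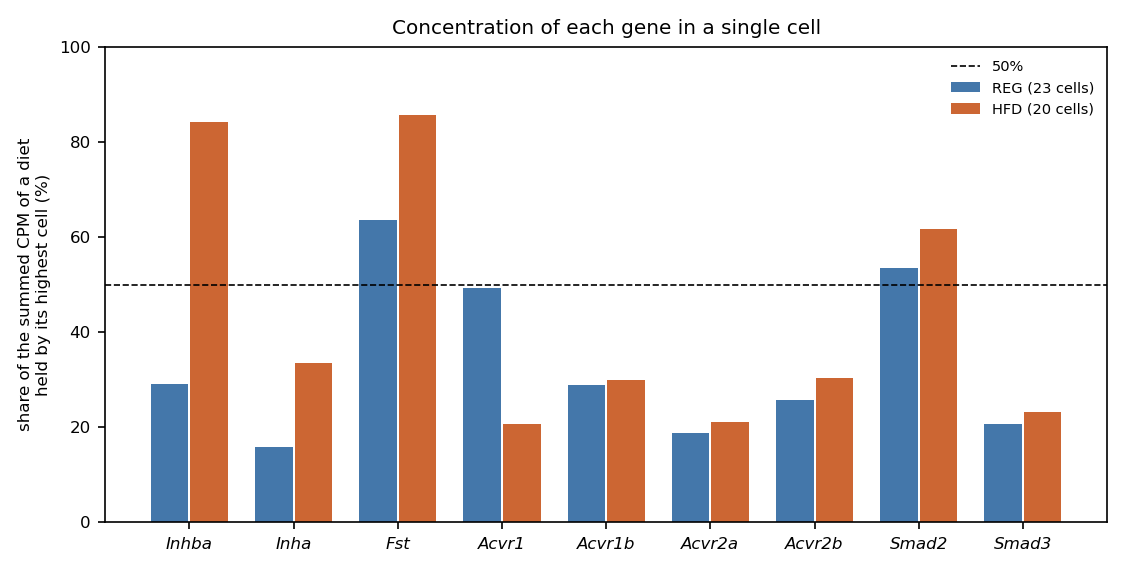
Share of the summed CPM of a diet held by its highest cell, in percent, for REG (23 cells) and HFD (20 cells), with a dashed line at 50%. *Inhba* in HFD cells (84.1%) and *Fst* in HFD cells (85.7%) stand highest, and *Inha* in REG cells (15.95%) lowest.

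Except for HFD cell 13, these cells had medium spiny neuron markers above the median cell. HFD cell 16 summed to 5860 CPM for that list. Its D2 sum was the highest of the 43 cells, 1380 CPM against a median of 13.2 CPM. Its D1 sum was 1599 CPM, rank 25, against a median of 1927 CPM. The cell also had microglial markers at 491 CPM, rank 4. It was also the highest HFD cell for *Acvr1b* (115 CPM) and *Acvr2a* (350 CPM). HFD cell 19 had the third highest D1 sum, 5327 CPM, and microglial markers at 0.777 CPM. It also ranked 1 of 43 for glutamatergic markers (66.9 CPM) and 2 for cholinergic markers (38.4 CPM). For oligodendrocyte markers (762 CPM) its rank was 3, and for other striatal interneurons (157.7 CPM) it was 4. Its *Smad2* value came with 781 filtered genes of which it was the highest of all cells, the most for any cell, from a library of 7460 detected genes.

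HFD cell 13 was highest of all 43 for 705 of the 10802 filtered genes, the second most of any cell, and held over 50% of the HFD total for 226 genes. Among 10743 genes with counts in at least 10 cells, *Inhba* was eleventh by the share that this cell held of the total over both diets, 70.3%. The 5 genes with the largest share were *Pskh1* (87.3%), *Pecr* (83.4%), *Lyz2* (79.6%), *Zfp687* (77.9%) and *Ganc* (77.7%). *Lyz2* encodes the lysozyme of macrophages and microglia, and the microglial list stood at 7.23 CPM in this cell, all of it *Cx3cr1*, with *C1qa*, *C1qb* and *Csf1r* at 0.

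The other genes of the pathway, a list of 47 ligands, receptors, binding proteins, SMADs and regulators, were read in the same cells. Counts were found for 45, and 27 passed the filter. Of these 27, 1 had a mean over 2-fold higher in HFD cells and 5 had a mean over 2-fold lower, and their median log2 ratio was −0.37. Over all filtered genes, 9.04% were higher and 14.3% lower by that measure, with a median of −0.13. *Zfyve9*, which encodes the anchor protein SARA that presents SMAD2 and SMAD3 to receptors, had a ratio of 1.08, with 0.90 and 1.78 within the batches and 0.70 at its lowest with 1 cell left out. *Tgfbr3* encodes betaglycan, the co-receptor through which inhibin holds type II receptors. Mean *Tgfbr3* was 21.1 CPM in REG and 2.78 CPM in HFD cells, with counts in 13 and 7 cells and a ratio of −2.92 that ran from −4.24 to −2.39 over the cells left out in turn. *Smurf1*, a ubiquitin ligase acting on SMADs and receptors, had a ratio of −1.31, and *Synj2bp*, an adaptor of activin type II receptors, had −1.29. With 1 cell left out these came to −0.85 and −0.77 at the nearest to 0. The ratios of *Chrd* and *Bmp6*, which encode an antagonist and a ligand of the bone morphogenetic protein branch, were −1.79 and −1.56. For *Chrd*, the ratio was −0.12 within batch 1, and it ran from −2.35 to −0.15 over the cells left out in turn. For *Bmp6*, HFD cell 12 held 82.4% of the HFD total, the ratio ran from −3.99 to −0.95 with 1 cell left out, and HFD cells of batch 1 had no count.

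Among genes set to be named whatever their values, *Smad4*, the shared partner of SMAD2 and SMAD3, had a median of 23.3 TPM, above each of the 10 genes, and a ratio of 0.68, with 0.69 and 0.72 within the batches. *Smad7*, the inhibitory SMAD, had −0.37, and *Furin*, which encodes a protease that cleaves ligand precursors, had −0.16. *Acvr1c*, which encodes the alternative type I receptor ALK7, had 0.26 with −2.75 in batch 1 and 2.30 in batch 2.

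The Spearman correlation of CPM over the 43 cells had a median of 0.063 over the 36 pairs of detected genes, and the highest value was 0.40, for *Fst* and *Inhba*. Among 9694 filtered genes read in at least 20 cells, those most like *Inhba* in rank were *Man2a1* (0.59), *1110038F14Rik* (0.59), *Spcs1* (0.58), *Rab14* (0.56) and *Sntb2* (0.55). With thinned cells these values were between 0.35 and 0.46. The gene most like *Inha* was *Rabac1* (0.68), and that most like *Acvr1* was *Acsl3* (0.71). For the other genes the closest were *Vps13c* with *Fst*, *Arhgef7* with *Acvr1b*, *Gon7* with *Acvr2a*, *Syf2* with *Acvr2b*, *Gprin1* with *Smad2* and *Bckdk* with *Smad3*, at 0.55 to 0.66. These are the highest of many values over cells that share mice, batches and differences in depth, and carry no test.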

How the data were processed

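Single NAcLat→VTA cells were collected through the patch pipette and sequenced as 1 library each. The authors demultiplexed the reads with bcl2fastq 2.20 and pseudo-aligned them with kallisto 0.45.1 to the Ensembl GRCm38 release 95 transcriptome, and excluded cells more than 3 median absolute deviations below the median. The deposited estimated counts are not normalized, and a second deposited table gives TPM, which the authors scaled within each cell to a sum of 1000000. How transcripts were counted by strand is not given in the sources used here.

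CPM was the estimated count over the cell total times 1000000, and ratios are log2 of mean CPM, HFD over REG, with no pseudocount. Counts were rounded for thinning (seed 11) and for edgeR and DESeq2. Past 2-fold means an absolute log2 ratio over 1. Shares carry exact Clopper-Pearson and summed counts exact Poisson 95% intervals. The ratio was run on simulated counts with known changes. These had no batches and no cell made to dominate a gene, so they cannot speak to ratios that rest on 1 cell. Coordinates and shared words of 31 bases came from an annotation of the same build. No sequence is shown, and 1 planned marker gene is not reported here and was left out of its list.

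The 10 genes and the lists were chosen with earlier results of these data known. Genes to be named were the 10 genes, pathway genes past 2-fold among those filtered, *Acvr1c*, *Smad4*, *Smad7* and *Furin*, the closest genes by rank correlation, and the 5 genes most concentrated in the cell with the highest *Inhba*. Marker genes, *Nts* and *Htr2c* in that cell were added after their values were seen. The percent of pairs of gene and cell detected for the remaining marker lists was, by list, glutamatergic neurons (45.0%), cholinergic interneurons (13.2%), other striatal interneurons (44.2%), astrocytes (47.4%), oligodendrocytes (51.7%), their precursors (51.2%), microglia (48.1%), endothelial cells (24.4%) and activity-regulated genes (95.6%). Alternatives covered TPM, TMM and DESeq2 scaling, totals without the abundant *Lars2* and *Gm19220*, other summaries over cells, edgeR coefficients read as values, each batch, leaving out each cell, other filters, detection limits and thinning. Fits were run in R 4.3.3 with DESeq2 1.42.0 and edgeR 4.0.16. All else was run in Python 3.11.15 with scipy 1.17.1, pandas 2.3.3 and numpy 2.4.6, and drawn with matplotlib 3.10.9.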

Additional observations from a re-analysis of the deposited data

How the results depend on the processing

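No paired analysis was possible because no label ties a cell of 1 diet to a cell of the other. The log2 ratio of *Inhba* was 2.02 on TPM, 2.24 with totals without *Lars2* and *Gm19220*, 2.14 on summed counts, 2.84 with TMM, 2.83 and 3.34 as edgeR coefficients without and with batch, and 3.38 with DESeq2 size factors. It was 0.40 on medians, 0.26 as a difference of mean log2(CPM + 1), 0.20 in batch 1 and 4.10 in batch 2, and ran from −0.029 to 2.98 with each cell left out. The scalings alone moved the median filtered gene by 0.14 (TMM) and 0.25 (DESeq2). The edgeR coefficients, which come from a fitted model, moved it by 0.14 without batch and 0.11 with batch. Of the 10 genes, 3 were past 2-fold, 5 on medians over cells (*Inha*, *Acvr1*, *Acvr1b*, *Acvr2b* and *Smad3*), and 2 to 5 with each cell left out, the 5 without HFD cell 16. The 5 without HFD cell 16 include *Fst*, which did not pass the filter. The share of all genes past 2-fold was not computed on medians, and among left-out cells only for HFD cell 13. Nothing is therefore read from the counts on medians or with a cell left out. *Inha* was below 0 and *Smad2* above 0 under every setting that gave a value, *Smad2* reaching 4.07 with DESeq2 size factors. *Smad2* has no ratio on medians because its REG median is 0. The share of cells with *Acvr1b*, a type II receptor and *Smad2* or *Smad3* was 20.9% above 15 CPM, 30.2% after thinning and, chosen after the data were seen, 73.8% without HFD cell 13. *Inhba* ranked 6 by level on CPM and 2 on mean TPM, in place of 8. The share of genes past 2-fold in either direction was 23.3%, and 40.2% without the filter, 17.7% with the limit met in 10 cells and 22.8% without HFD cell 13. For values that moved, the cause was not tested beyond the cells left out.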

Other observations

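*Inhba* belongs to the genes that synaptic activity induces, and other such genes were uneven in HFD cell 13. The list of 8 activity-regulated genes summed to 1777 CPM there, rank 8 of 43 cells. *Fos* (393 CPM), *Junb* (407 CPM) and *Arc* (826 CPM) stood above their medians over all cells of 83.7, 83.4 and 141 CPM. *Fosb* (0.711 CPM), *Nr4a1* (1.42 CPM) and *Npas4* (12.1 CPM) stood below theirs, which were 29.2, 22.5 and 35.6 CPM. *Egr1* (134 CPM) and *Bdnf* (2.84 CPM) were also below their medians of 153 and 6.51 CPM, so 3 of the 8 genes stood above and 5 below. Over both diets together, 57.6% of *Htr2c* CPM lay in this cell as well.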
